A study of Saccharomyces cerevisiae with 17 samples.

Results

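The small subunit processome genes of budding yeast were examined as a set of 48 genes out of 7126 features counted, chosen by their systematic names as the subunits and partners of this particle together with the box C/D core proteins. All 48 were among the 6195 genes that passed the filter on low counts, and the lowest count of any member in any library was 60. The set was divided by role into 7 modules: UTP-A (7 genes), UTP-B (6), UTP-C (2), the MPP10 complex (4), the proteins of the U3 particle (5), enzymes and their cofactors (10) and other assembly factors (14).

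The small subunit processome is the large nucleolar particle that forms on the nascent precursor of ribosomal RNA and prepares it for the cuts that release the small subunit. UTP-A binds the leader of the precursor first, the U3 small nucleolar RNA then base-pairs with the precursor, and UTP-B, the MPP10 complex and later factors fold it while nucleases, helicases and a GTPase drive the cuts and the release of U3. Genes for ribosome assembly factors form the ribosome biogenesis regulon, which is known to be turned down together when growth slows or stress sets in.

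Poly(A) RNA was sequenced from 17 libraries of 1 Saccharomyces cerevisiae strain (BY25598, MATa), grown to log phase in YPD at 30 °C. In this strain the cytoplasmic exonuclease Xrn1, which degrades decapped mRNA from its 5′ end, carries an auxin-inducible degron (XRN1-AID, HIS), and the receptor OsTIR1, tagged with 9Myc, is expressed from the ADH1 promoter at ura3-1 with a URA3 marker. Every group also carries ade2-1 and his3-11,15, as well as leu2-3,112 with trp1-1 and can1-100. Xrn1-AID cells received 500 µM auxin for 30 min before NaCl, and Xrn1-WT cells, of the same degron strain, received none. The labels name no solvent control and no second clone, so auxin and loss of Xrn1 cannot be told apart. Each arm was sampled without NaCl (0 min) and after 10 and 30 min in 0.4 M NaCl, with 3 libraries a group and 2 for Xrn1-AID at 30 min. Nothing in the labels ties replicates to different cultures, and the tests below therefore rest on a spread that may be technical.

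Total counts ranged from 13.9 to 30.4 M. The 4 genes specific to mating type a summed to between 168 and 744 counts per M counts (CPM) in every library and the 4 specific to type alpha to between 10.1 and 62.5. The order of the sums is that of the MATa label. SAG1 (9.01 to 60.9 CPM) held most of the type alpha sum. Its group mean lay above that of the type a gene MFA1 in Xrn1-AID at 0 min (45 against 24.8). It did so at 30 min in Xrn1-WT (20 against 17.4) and Xrn1-AID (20.8 against 16.5) too, and lay below it in the other groups. The 4 meiosis genes summed to between 6.42 and 17.6 CPM. Xrn1-WT 0 min replicate 3 and Xrn1-WT 10 min replicate 2 stood farthest from their groups, with a root mean square deviation over the tested genes of 0.494 and 0.419 on the log2 scale. Within groups, the members' deviations moved with coding length, most strongly in libraries of Xrn1-WT at 10 and 30 min. Spearman's rho over the 48 genes was -0.75 in Xrn1-WT 10 min replicate 2, and -0.62, 0.73 and -0.50 in replicates 1, 2 and 3 of Xrn1-WT at 30 min. It was -0.29, 0.50 and -0.22 in replicates 1, 2 and 3 of Xrn1-WT at 0 min, and lay between -0.52 and 0.33 in the Xrn1-AID libraries. Levels are TMM-scaled CPM, that is, shares of the poly(A) RNA. RNA per cell was not measured, so fewer cells with an mRNA and less of it per cell cannot be told apart.

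Upstream of the start codon most of the members held short sequence motifs. The PAC motif, GCGATGAG, is known as a binding sequence of the repressors Dot6 and Tod6, and the RRPE motif, AAAATTTT, as one of Stb3. On either strand of the 300 bases before the start codon, an exact PAC was present in 25 of the 48 members (52.1%) against 4.05% of all 6007 nuclear protein-coding genes, and an exact RRPE in 38 (79.2%) against 9.42%. Both were present in 22 members (45.8%) against 2.01%, and 7 members held neither. Near matches were not counted. The window of SOF1 below, listed with neither, contains tcgatgag, and that of UTP23, listed with RRPE alone, contains gtgatgag. RRPE is its own reverse complement, and the shares describe letters in a window and not bound sites. The following 8 windows run from 180 to 61 bases before the start codon on the coding strand (genome build sacCer3). They show members with both motifs (UTP10, KRR1, BUD21), with RRPE alone (UTP23, ENP2, RRP7) and with neither (RRP9, SOF1), chosen to span the deepest and the shallowest changes described below. Capitals mark the motifs.
UTP10 (chrX:217370-217489, - strand): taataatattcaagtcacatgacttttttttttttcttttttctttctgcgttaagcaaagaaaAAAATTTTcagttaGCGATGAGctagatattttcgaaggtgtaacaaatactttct
KRR1 (chrIII:23440-23559, - strand): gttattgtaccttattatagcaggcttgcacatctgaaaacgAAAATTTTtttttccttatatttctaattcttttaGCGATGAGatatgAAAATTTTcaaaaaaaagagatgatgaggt
BUD21 (chrXV:472545-472664, + strand): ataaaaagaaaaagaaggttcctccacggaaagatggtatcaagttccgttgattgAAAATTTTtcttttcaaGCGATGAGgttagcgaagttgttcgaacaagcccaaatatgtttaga
UTP23 (chrXV:333412-333531, + strand): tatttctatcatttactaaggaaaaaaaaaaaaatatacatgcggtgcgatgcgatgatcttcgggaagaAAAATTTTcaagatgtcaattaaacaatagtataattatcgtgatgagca
ENP2 (chrVII:781587-781706, + strand): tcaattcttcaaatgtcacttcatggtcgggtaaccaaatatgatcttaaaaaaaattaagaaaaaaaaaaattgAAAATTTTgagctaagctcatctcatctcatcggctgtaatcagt
RRP7 (chrIII:65629-65748, - strand): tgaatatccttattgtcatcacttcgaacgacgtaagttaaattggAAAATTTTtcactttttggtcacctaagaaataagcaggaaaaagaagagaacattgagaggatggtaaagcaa
RRP9 (chrXVI:802179-802298, + strand): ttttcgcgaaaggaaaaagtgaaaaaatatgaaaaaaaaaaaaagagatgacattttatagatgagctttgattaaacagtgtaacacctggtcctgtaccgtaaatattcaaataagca
SOF1 (chrXII:127343-127462, + strand): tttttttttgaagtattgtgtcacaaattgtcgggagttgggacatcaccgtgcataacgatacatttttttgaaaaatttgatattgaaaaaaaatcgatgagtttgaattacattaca
In these windows RRPE lies just upstream of PAC in UTP10 and BUD21, while KRR1 has an RRPE on each side of its PAC. Taking the closest pair in each gene, RRPE lay upstream of PAC in 18 of the 22 members with both motifs, against 76 of the 121 genes of the genome with both. KRR1 is not among the 18, since the RRPE closest to its PAC lies downstream. The gap between the motifs was at most 30 bases in 21 of the 22 members, with a median of 7. Over the genome it was so in 99 of the 121 genes, with a median of 8. Of the members' 26 PAC motifs, 24 (92.3%) ended between 70 and 180 bases before the start codon, against 70.2% for all genes. Of their 48 RRPE motifs 43 (89.6%) did so against 63.1%. These bounds were not taken from a stated source, and motifs of members lie at or near them (PAC of MPP10 at 70, RRPE of UTP5 at 178). The comparison may therefore favour the members, and it was not tested.

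**Figure D1:**
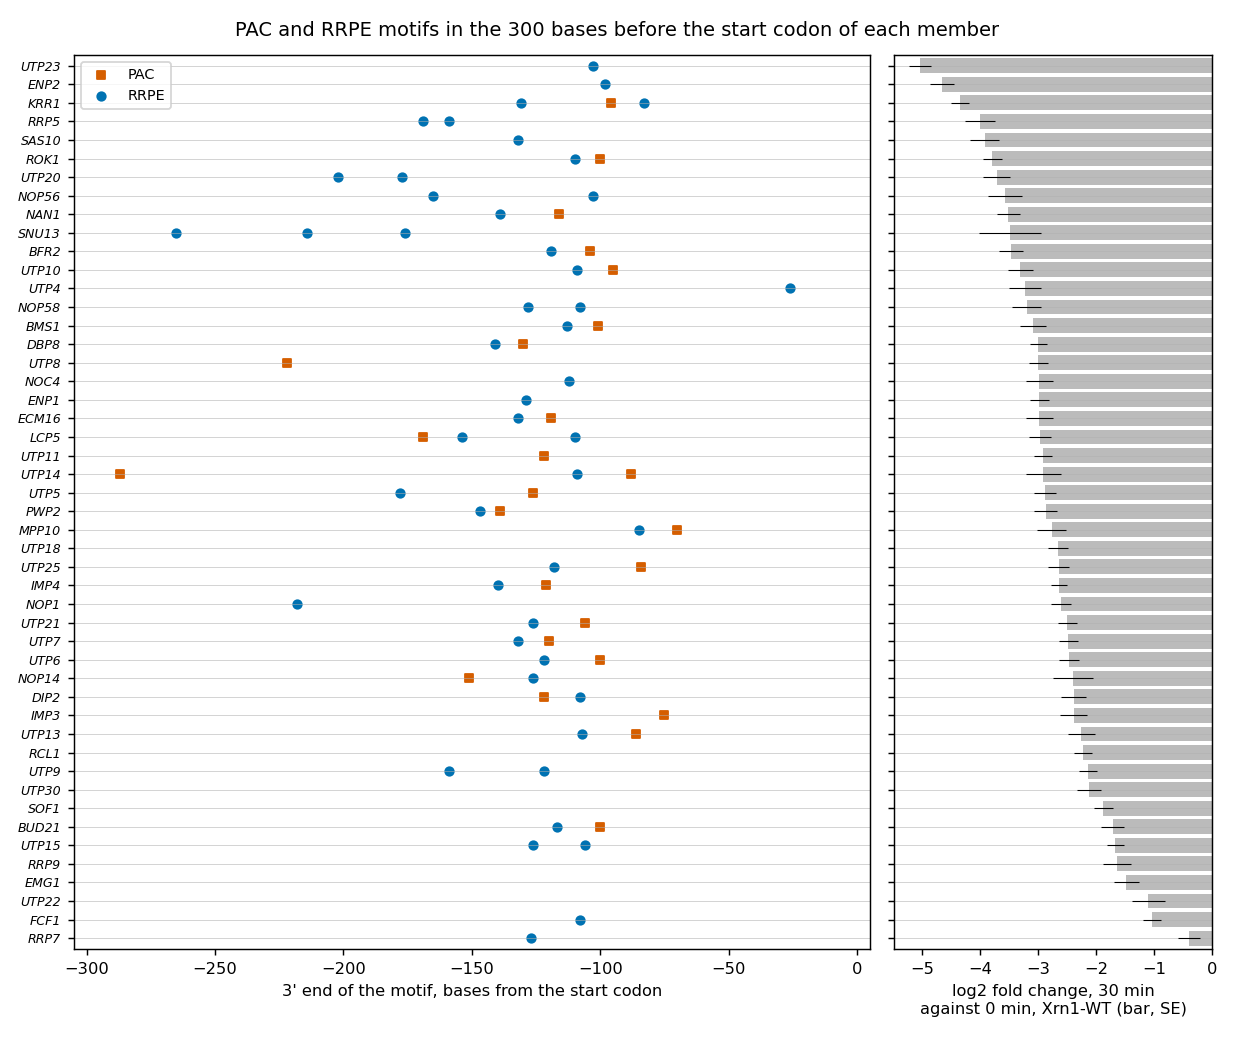
Left, distance in bases from the start codon to the 3′ end of each PAC (orange squares) and RRPE (blue circles) motif in each member, ordered by change. Right, log2 fold change at 30 against 0 min NaCl in Xrn1-WT with its SE. Most motifs lie between 70 and 180 bases before the start codon, and RRP7, with the smallest change of the set (-0.40), holds an RRPE.

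At 0 min in Xrn1-WT the members spanned a wide range of levels per length of coding sequence, from 16.7 CPM per kb for ECM16, the helicase that unwinds U3 from the precursor, to 2230 CPM per kb for SNU13, which binds the kink-turn of box C/D RNAs. The median was 66.9 CPM per kb. SNU13 was also the member with the highest mean level per kb in the other 5 groups, although its spread in Xrn1-WT was wide, as given below.

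The first question was how far NaCl lowered these mRNAs while Xrn1 was present. After 10 min in Xrn1-WT, 37 of the 48 members were lower at a Benjamini-Hochberg adjusted p under 0.05 in edgeR's quasi-likelihood test (termed called below) and none was higher, where 24.6% of all tested genes were called lower and 19.7% higher. Their median log2 fold change was -0.97, against -0.06 over all genes. After 30 min, 47 members were called lower and none higher, where 27.5% of all genes were called lower and 29.1% higher, and the median had reached -2.88 against 0.01. All 47 were more than 2-fold lower, as were 17% of all genes, and 40 were more than 4-fold lower, as were 8.07% of all genes. The summed level of the 48 members was 8211 ± 641 CPM at 0 min, 5142 ± 643 at 10 min and 1249 ± 79.0 at 30 min (SD, n = 3 each). For 47 members all 30 min libraries lay below all 0 min libraries, which was so for 28.8% of all genes.

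**Figure D2:**
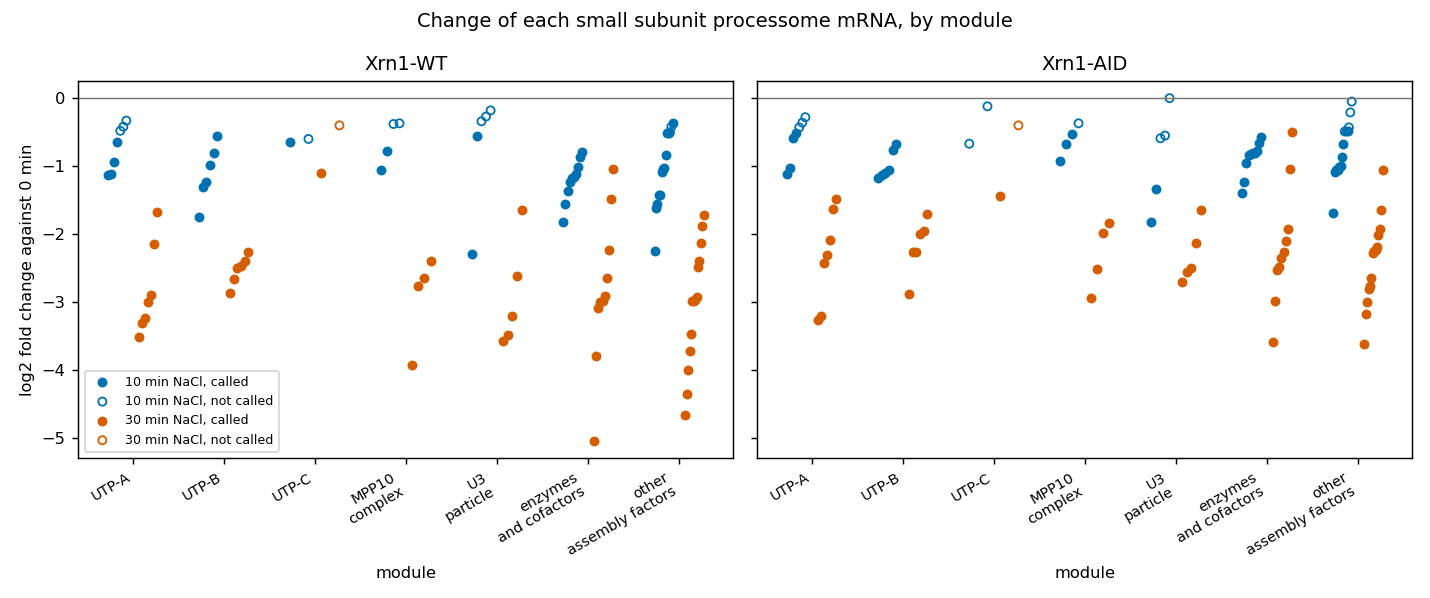
Log2 fold change of each member against 0 min NaCl (vertical axis) by module, at 10 min (blue) and 30 min (orange), in Xrn1-WT (left) and Xrn1-AID (right). Filled points passed the test and open points did not; RRP7 is the open orange point in both arms.

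In UTP-A, which nucleates the particle, all 7 members were called lower at 30 min in Xrn1-WT, with a median of -3.0, while 4 were called lower at 10 min. UTP10 (YJL109C, chromosome X, 212000 to 217309), its HEAT-repeat scaffold, stood at 166, 223 and 253 CPM at 0 min, at 176, 125 and 158 at 10 min and at 17.7, 26.7 and 20 at 30 min. The 0 and 10 min libraries overlapped and those at 30 min were far below both. The change was -0.48 ± 0.20 (log2, SE) at 10 min, with an adjusted p of 0.061, and -3.31 ± 0.22 at 30 min, with an adjusted p of 1.95e-09. UTP8, known also for a role in nuclear tRNA export, stood at 138, 149 and 167 CPM before NaCl and at 17, 20.7 and 18.9 after 30 min, without overlap, a change of -3.0 ± 0.16. UTP15 changed least in this module at 30 min, by -1.67 ± 0.15.

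All 6 UTP-B genes, which encode the scaffold that joins after UTP-A, were called lower at both times in Xrn1-WT. Their changes at 30 min lay between -2.87 and -2.26, the narrowest range among the modules with more than 2 genes. PWP2 (YCR057C) stood at 128, 148 and 130 CPM at 0 min, at 124, 77.9 and 72.8 at 10 min and at 15.6, 19.9 and 19.9 at 30 min. One 10 min library of PWP2 lay close to the 0 min libraries, and its 10 min call was lost without Xrn1-WT 0 min replicate 2 (-0.49), 10 min replicate 2 (-0.48) or 10 min replicate 3 (-0.42). UTP21 fell from 172, 203 and 177 CPM to 129, 89.4 and 98.4 at 10 min and to 28.3, 38.8 and 30.5 at 30 min, with no overlap between the times.

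UTP-C differed from the other modules in size of change. UTP22 (YGR090W) stood at 122, 167 and 81.3 CPM at 0 min, at 103, 58.6 and 81.4 at 10 min and at 46.8, 64.1 and 61.8 at 30 min. Its change was not called at 10 min (-0.60 ± 0.27, adjusted p = 0.0852) and was -1.10 ± 0.28 at 30 min. RRP7 (YCL031C) stood at 99.9, 103 and 66.1 CPM at 0 min, at 58.6, 56.6 and 56.7 at 10 min and at 65.8, 65.1 and 73.5 at 30 min. It was the single member not called at 30 min in Xrn1-WT, at -0.40 ± 0.19 (adjusted p = 0.0839), and its 0 and 30 min libraries overlapped. Without Xrn1-WT 0 min replicate 3, where it was lowest, all 48 members were called lower at 30 min. The 4 casein kinase 2 subunits, whose proteins associate with UTP-C and also serve many other processes, had changes between -0.56 and -0.12 at 30 min in Xrn1-WT and none was called in any NaCl comparison of either arm in edgeR's test, with 1 (CKA2, -0.56 ± 0.25 at 30 min in Xrn1-WT) at an unadjusted p under 0.05.

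All 4 genes of the MPP10 complex were called lower at 30 min in Xrn1-WT, with a median of -2.71. MPP10 (YJR002W) stood at 112, 145 and 62.9 CPM at 0 min, at 98.5, 63.6 and 85.6 at 10 min and at 13.8, 17 and 16 at 30 min. The first 2 times overlapped and the last lay below both, with a change of -2.77 ± 0.25. IMP3, whose protein helps U3 pair with the precursor, fell from 43.7, 46.9 and 28.1 CPM to 6.32, 6.74 and 9.52 at 30 min, by 2.39 ± 0.23 on the log2 scale. SAS10 had the largest change of the module at 30 min, -3.92 ± 0.25, after a 10 min change of -0.38 ± 0.22 that was not called.

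The 5 U3 particle genes summed to 2999 ± 847 CPM at 0 min and to 354.3 ± 21.4 CPM at 30 min in Xrn1-WT (SD, n = 3), and their courses were unlike one another. NOP1 (YDL014W, chromosome IV, 427364 to 428347), the methyltransferase fibrillarin, stood at 734, 774 and 693 CPM at 0 min, at 575, 532 and 393 at 10 min and at 124, 106 and 132 at 30 min. The times did not overlap, and the 30 min change was -2.61 ± 0.17. Its 10 min change of -0.55 ± 0.16 was not called without 10 min replicate 3 (-0.41). NOP56, a scaffold of the C/D particle, stood at 814, 724 and 1100 CPM at 0 min, at 647, 817 and 628 at 10 min and at 70.4, 78.8 and 72.5 at 30 min, so that its 30 min change was -3.57 ± 0.29 with no call at 10 min. SNU13 (YEL026W, chromosome V, 101943 to 102323) stood at 558, 340 and 1650 CPM at 0 min, at 584, 1220 and 438 at 10 min and at 84.2, 57.8 and 85.2 at 30 min. Its high values were in the 2 libraries that stood farthest from their groups, and its 30 min libraries lay below all others (-3.49 ± 0.53).

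RRP9 (YPR137W, chromosome XVI, 802359 to 804080), the protein specific to U3 among the 5, followed another course. It stood at 131, 143 and 94.8 CPM at 0 min, at 38.4, 16.0 and 20.5 at 10 min and at 37.0, 43.5 and 37.8 at 30 min. The 10 and 30 min libraries overlapped and both lay below 0 min. Its 10 min change, -2.29 ± 0.25, was the largest of the set, and it was called higher from 10 to 30 min (0.66 ± 0.24, adjusted p = 0.0308). That rise was not called without Xrn1-WT 10 min replicate 2 (0.46) or 3 (0.53) or without 30 min replicate 2 (0.58) or 3 (0.69).

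The 10 enzymes and cofactors were all called lower at both times in Xrn1-WT, with medians of -1.17 and -2.95. UTP23 (YOR004W, chromosome XV, 333592 to 334356), a PIN-domain protein known for its part in the work of the snR30 small nucleolar RNA, had the largest 30 min change of all 48 members. It stood at 93.6, 94.9 and 99.2 CPM at 0 min, at 46.0, 37.7 and 28.1 at 10 min and at 2.82, 2.66 and 3.26 at 30 min, a change of -5.04 ± 0.19 with no overlap between the times. BMS1, the GTPase of the particle, fell from 142, 181 and 176 CPM to 15.5, 24.1 and 18.9, and ECM16 from 60, 75.1 and 55.3 CPM to 6.97, 9.93 and 7.13 at 30 min.

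FCF1 and EMG1 were the enzymes with the smallest 30 min changes. FCF1 (YDR339C, chromosome IV, 1149951 to 1150520), the PIN-domain nuclease also named Utp24, stood at 122, 98.3 and 140 CPM at 0 min, at 52.2, 59.1 and 49.5 at 10 min and at 60.7, 53.9 and 61.1 at 30 min. Its level was lower by 10 min and the 10 and 30 min libraries overlapped (-1.16 ± 0.15 and -1.04 ± 0.15 against 0 min). EMG1, a methyltransferase of the small subunit RNA, stood at 172, 159 and 270 CPM at 0 min, at 93.1, 101 and 73.6 at 10 min and at 76.6, 59.1 and 79.4 at 30 min.

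Among the 14 other assembly factors, all were called lower at 30 min in Xrn1-WT. ENP2 (YGR145W, chromosome VII, 781767 to 783890), a WD-repeat protein, stood at 134, 139 and 129 CPM at 0 min, at 118, 74.2 and 89.8 at 10 min and at 4.43, 6.62 and 4.79 at 30 min. Nearly all of its change, -4.66 ± 0.20 at 30 min, came after 10 min, when it was at -0.51 ± 0.17, a call that was lost without 0 min replicate 2 (-0.48) or 10 min replicate 2 (-0.39) or 3 (-0.47). KRR1, a KH-domain protein, stood at 179, 175 and 174 CPM, then at 131, 150 and 129, then at 8.91, 7.81 and 9.14. UTP20, a large HEAT-repeat protein, fell from 126, 157 and 133 CPM to 87.6, 64.0 and 81.6 and then to 8.72, 13.8 and 8.92. SOF1 (YLL011W), a WD-repeat protein, stood at 94.7, 99.0 and 69.6 CPM at 0 min, at 21.1, 15.9 and 18.1 at 10 min and at 22.2, 26.9 and 22.5 at 30 min. Its 30 min libraries lay above its 10 min libraries, but the change between them was not called (0.38 ± 0.16, adjusted p = 0.0567).

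**Figure D3:**
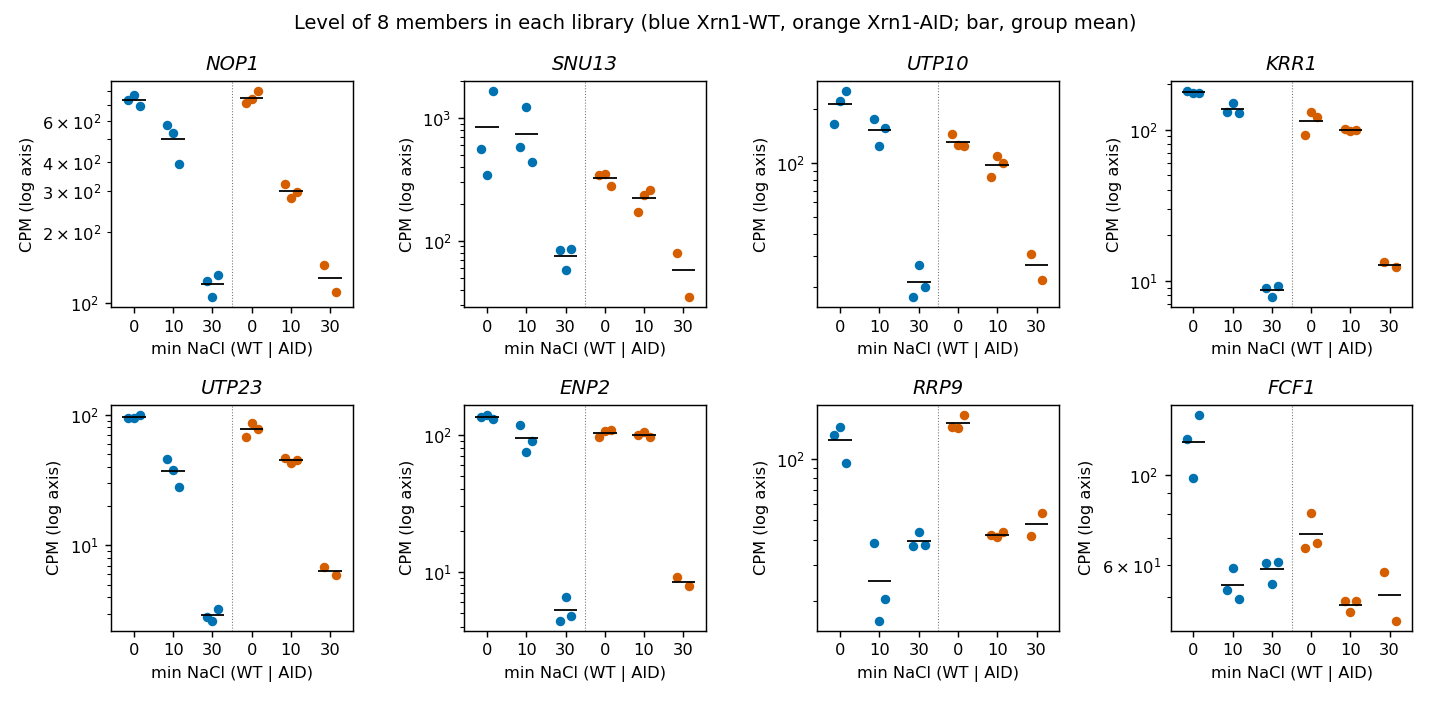
Level of 8 members in every library (CPM, log axis) at 0, 10 and 30 min NaCl, Xrn1-WT in blue and Xrn1-AID in orange, with the group mean as a bar. KRR1 and ENP2 drop mainly at 30 min, UTP23 drops at 10 min and again at 30 min, and RRP9 and FCF1 are low by 10 min.

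The time courses were then compared within the set. From 10 to 30 min in Xrn1-WT, 41 members were called lower and 1 higher, where 25.7% of all genes were called lower and 30.6% higher. With library size alone in place of TMM, which moved the median of all genes from 0.08 to 0.94, the members stood at 32 lower and 6 higher. Of the 48, 31 were called lower in both steps, 10 in the second step alone, 5 in the first alone (RRP7, FCF1, EMG1, SOF1, BUD21), 1 was lower and then higher (RRP9), and 1 (UTP22) was called in neither. Over all tested genes, 5.47% were called lower in both steps, 13.6% were lower in the second step and not called in the first, 7.46% were lower in the first and not called in the second, 11.6% were lower and then higher, and 28.7% were called in neither. BUD21, also named Utp16, changed by -1.62 ± 0.20 at 10 min and by -0.10 ± 0.20 from 10 to 30 min. At the other end, ENP2 changed by -4.15 ± 0.19 from 10 to 30 min, KRR1 by -3.99 ± 0.15, UTP23 by -3.68 ± 0.18 and SAS10 by -3.54 ± 0.25.

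**Figure D4:**
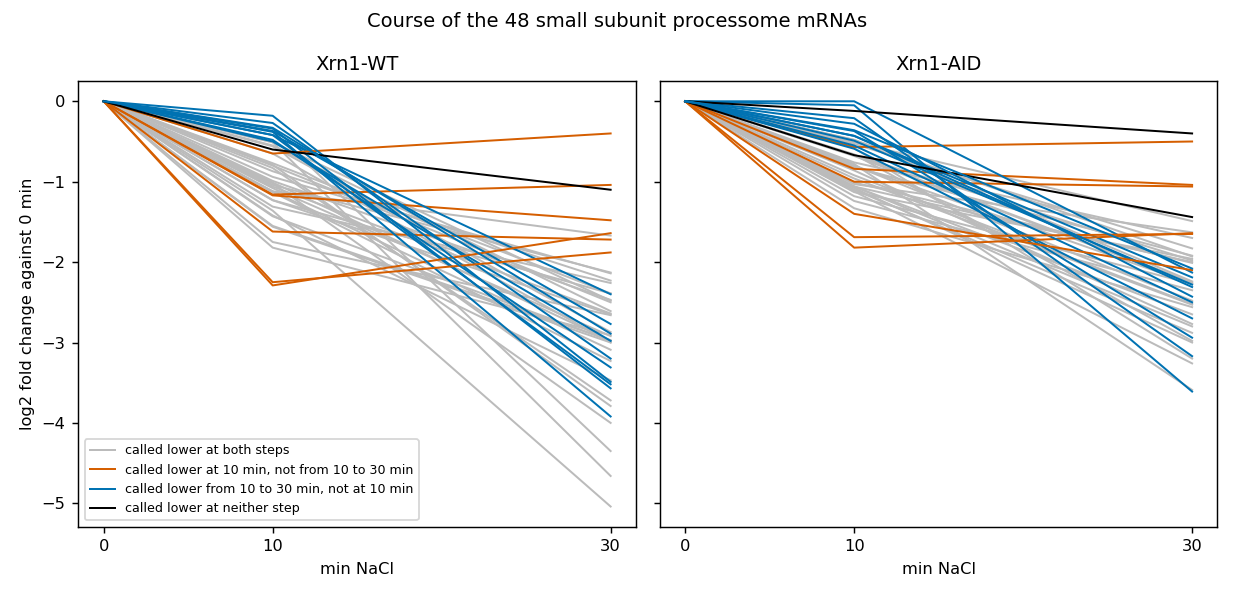
Log2 fold change against 0 min NaCl of the 48 members at 10 and 30 min in Xrn1-WT (left) and Xrn1-AID (right), each line 1 gene. Orange lines were called lower at 10 min and not from 10 to 30 min, blue lines the reverse, grey lines in both steps and black lines in neither; RRP9 and SOF1 are the 2 orange lines at the bottom at 10 min.

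Set beside the motifs, the 7 members with no exact PAC or RRPE (UTP18, UTP22, RRP9, RCL1, EMG1, SOF1, UTP30) had a median change from 10 to 30 min of -0.49 in Xrn1-WT, against -1.97 for the 22 with both, -2.68 for the 16 with RRPE alone and -1.84 for the 3 with PAC alone. At 10 min the order was different, with medians of -1.17 for neither, -1.0 for both, -0.74 for RRPE alone and -0.77 for PAC alone. The classes overlapped, since BUD21 holds both motifs and FCF1 and RRP7 hold RRPE. These medians were not tested, and a near match to a motif counts here as its absence. Over the 48 members the 30 min change in Xrn1-WT had a Spearman's rho of -0.24 with log2 coding length and of 0.03 with log2 level per kb at 0 min, both as descriptions across genes of the same libraries.

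The mRNAs of 7 regulators of the ribosome biogenesis regulon or of ribosomal protein genes, including those named above, were then examined. DOT6 mRNA was called higher at 10 min (0.91 ± 0.16) and at 30 min (0.87 ± 0.16) in Xrn1-WT. TOD6 mRNA was called lower at 30 min (-3.28 ± 0.31), and STB3 mRNA higher (1.18 ± 0.24). SFP1, an activator of the regulon, was called higher at 10 min (1.73 ± 0.32) and not at 30 min (0.41 ± 0.31, adjusted p = 0.275). IFH1, a coactivator of ribosomal protein genes, was called lower at both times (-1.15 ± 0.29 and -1.04 ± 0.28). Of the 7 regulators, which also included FHL1 and SCH9, 1 was called lower and 2 higher at 10 min in Xrn1-WT, and 3 lower and 2 higher at 30 min, where 24.6% of all genes were called lower and 19.7% higher at 10 min and 27.5% and 29.1% at 30 min. In Xrn1-AID, DOT6 was not called at 10 min (0.34 ± 0.16, adjusted p = 0.111) or at 30 min (0.15 ± 0.18, adjusted p = 0.495), and STB3 was not called at 30 min (0.36 ± 0.26, adjusted p = 0.261), while TOD6 was called lower at both times (-1.12 ± 0.28 and -3.44 ± 0.37). Before NaCl, DOT6 (0.91 ± 0.16) and STB3 (0.85 ± 0.24) were already called higher in Xrn1-AID than in Xrn1-WT. DOT6 then stood at a mean of 128 CPM in Xrn1-AID, against 67.9 in Xrn1-WT. At 0 min, 4 of the 7 were called higher between the arms and 0 lower, where 16.2% and 16.4% of all genes were. None of the 7 regulators was called in the difference between the arms' responses at 10 or 30 min, where DOT6 stood at -0.57 ± 0.23 (adjusted p = 0.202) and -0.71 ± 0.24 (adjusted p = 0.149) and STB3 at 30 min at -0.82 ± 0.36 (adjusted p = 0.25).

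In Xrn1-AID the same 48 genes were asked the same question. At 10 min, 35 were called lower and none higher, where 16.6% of all genes were called lower and 19% higher, with a median of -0.77 against -0.03 over all genes. At 30 min, 47 were called lower and none higher, where 26.6% of all genes were called lower and 27.2% higher, with a median of -2.26 against 0.01. Their summed level was 6267 ± 191 CPM at 0 min, 3747 ± 251 at 10 min (n = 3 each) and 1370 ± 81.6 at 30 min (n = 2). From 10 to 30 min, 40 were called lower and none higher, where 22% of all genes were called lower and 19.8% higher.

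ENP2 and UTP23 had the largest 30 min changes in Xrn1-AID. ENP2 stood at 95.5, 107 and 108 CPM at 0 min, at 99.4, 104 and 96.2 at 10 min and at 9.16 and 7.85 at 30 min, with a 10 min change that was not called (-0.05 ± 0.17) and a 30 min change of -3.61 ± 0.22. UTP23 stood at 67.8, 85.9 and 77.1 CPM, then at 46.6, 42.6 and 45.2, then at 6.85 and 5.98 (-3.59 ± 0.21 at 30 min). Both lay below all earlier libraries at 30 min. RRP9 stood at 143, 141 and 164 CPM, at 42.1, 41.4 and 43.4 and at 41.6 and 53.9, with a change from 10 to 30 min of 0.18 ± 0.27 that was not called. SOF1 did likewise, at -1.69 ± 0.16 and -1.65 ± 0.18 against 0 min.

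The scaffold genes described for Xrn1-WT were low at 30 min in Xrn1-AID as well. UTP10 stood at 145, 126 and 124 CPM at 0 min, at 83.0, 110 and 100.0 at 10 min and at 31.0 and 22.1 at 30 min. UTP21 stood at 166, 155 and 165 CPM, then at 91.8, 108 and 103, then at 32.9 and 34.7. PWP2 stood at 189, 166 and 181 CPM, at 91.2, 78.8 and 80.7 and at 21.1 and 27.4. For all 3 the times did not overlap, and the 30 min changes were -2.31 ± 0.25, -2.26 ± 0.19 and -2.88 ± 0.23. MPP10 stood at 119, 139 and 158 CPM at 0 min, at 69.1, 81.5 and 69.8 at 10 min and at 22.6 and 25.8 at 30 min. IMP3 stood at 38.4, 45.8 and 44.6 CPM, at 28.1, 27.3 and 25.7 and at 10.4 and 11.3. Both were called lower at 10 and at 30 min, and the IMP3 call at 10 min was lost without Xrn1-AID 0 min replicate 2 or 3 or any 1 library at 10 min (-0.62 to -0.70).

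SNU13 in Xrn1-AID stood at 344, 348 and 281 CPM at 0 min, at 170, 238 and 258 at 10 min and at 80 and 34.9 at 30 min. UTP20 stood at 78.2, 68.1 and 83.3 CPM at 0 min, at 25.3, 43.9 and 39.2 at 10 min and at 10.9 and 8.36 at 30 min. BMS1 stood at 102, 142 and 148 CPM, at 79.3, 72.7 and 69.2 and at 30.9 and 37.8. The times did not overlap for these 3 genes. ECM16 stood at 54.2, 51.8 and 62.9 CPM, at 25.9, 30.6 and 30.1 and at 8.31 and 11.1. EMG1 stood at 158, 176 and 159 CPM, at 102, 86.4 and 87.7 and at 93.6 and 66.3, so that its 10 and 30 min libraries overlapped as those of RRP9 did. UTP22 stood at 126, 74.2 and 83.3 CPM, at 44.3, 71.3 and 62.5 and at 33.5 and 36.0, and was called at 30 min (-1.44 ± 0.32) and not at 10 min (-0.67 ± 0.27, adjusted p = 0.0688).

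RRP7 was again the single member not called at 30 min (-0.40 ± 0.21, adjusted p = 0.127), at 54.1, 60.6 and 60.2 CPM before NaCl and 33.8 and 54.4 after 30 min, values that overlapped. FCF1 stood at 66.0, 80.5 and 68.0 CPM at 0 min, at 49.1, 46.0 and 48.9 at 10 min and at 57.6 and 43.9 at 30 min. It was called at 30 min (-0.50 ± 0.17, adjusted p = 0.0202), and not without Xrn1-AID 0 min replicate 2 (-0.40) or 30 min replicate 2 (-0.31). NOP56 stood at 374, 266 and 301 CPM at 0 min, at 192, 390 and 356 at 10 min and at 93.3 and 49.9 at 30 min. In both arms NOP56 was called lower at 30 min and not at 10 min. NOP1 stood at 711, 745 and 800 CPM at 0 min, at 321, 281 and 297 at 10 min and at 145 and 111 at 30 min. Its 10 min change was -1.33 ± 0.16, and the difference from the change in Xrn1-WT, -0.77 ± 0.22, did not pass in edgeR's test (adjusted p = 0.0959).

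The arms were next compared at each time. Before NaCl, 13 members were called lower in Xrn1-AID and none higher, where 16.4% of all genes were called lower and 16.2% higher, and the members' median was -0.28 against -0.02. The share of members called lower, 13 of 48, stood over that of all genes, and with library size alone 7 were called. After correction for GC content and length 19 were called lower, and 15 without the 2 libraries that stood farthest from their groups. Over all genes, 2019 were called in either direction, and 1113 with library size alone. The count over all genes was 1886 after that correction and 1929 without those 2 libraries. Among the called members the largest changes were those of NOP56 (-1.49 ± 0.27), SNU13 (-1.39 ± 0.49), UTP6 (-1.19 ± 0.18) and UTP9 (-1.18 ± 0.16). UTP9 and UTP6 encode subunits of UTP-A and UTP-B, and UTP9 stood at 152, 158 and 135 CPM in Xrn1-WT against 62.0, 67.8 and 66.9 in Xrn1-AID, with no overlap. UTP6 stood at 71.8, 81.3 and 84.1 CPM against 40.9, 32.0 and 31.1. For SNU13, without Xrn1-WT 0 min replicate 3 the difference was -0.47 and was not called, nor was it called without Xrn1-AID 0 min replicate 1, 2 or 3 (-1.43, -1.44 and -1.31).

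After 10 min of NaCl, 10 members were called lower and 4 higher in Xrn1-AID, where 10.9% of all genes were called lower and 17.3% higher (5 and 1 members with library size alone, 12 and 2 after correction for GC content and length). Over all genes, 1749 were called in either direction, 1149 with library size alone and 1977 after that correction. The lowest members were SNU13 (-1.75 ± 0.49), NOP56 (-1.16 ± 0.27), UTP20 (-1.10 ± 0.22) and UTP6 (-0.95 ± 0.18). The SNU13 call was lost without Xrn1-WT 10 min replicate 2 (-1.17) or Xrn1-AID 10 min replicate 1 (-1.59). The number called was 9, 8 and 9 without Xrn1-AID replicate 1 or 3 or Xrn1-WT replicate 2 at 10 min. The members called higher were DBP8, a DEAD-box helicase (0.88 ± 0.14), RRP9 (0.76 ± 0.24), SOF1 (0.59 ± 0.16) and UTP18 (0.51 ± 0.16). The RRP9 and UTP18 calls were each lost without any 1 Xrn1-AID 10 min library or without Xrn1-WT 10 min replicate 2 or 3, with values of 0.55 to 0.77 and of 0.36 to 0.53, and the SOF1 call without Xrn1-AID 10 min replicate 2 (0.52) or 3 (0.55) or Xrn1-WT 10 min replicate 2 (0.53).

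After 30 min the order had turned, with 2 members called lower and 9 higher in Xrn1-AID, where 11% of all genes were called lower and 11.5% higher. The split was 0 and 1 with library size alone and 0 and 16 after correction for GC content and length, and the number called was 4 and 2 without Xrn1-AID 30 min replicate 1 or 2 and 6 and 5 without Xrn1-WT 30 min replicate 1 or 3. Over all genes, 1393 were called in either direction, 724 with library size alone and 1280 after that correction. The highest members were UTP23 (1.14 ± 0.19), RRP5, which acts in the assembly of both subunits (0.86 ± 0.26), BMS1 (0.82 ± 0.23) and LCP5 (0.79 ± 0.19). The 2 called lower were RRP7 (-0.63 ± 0.22) and UTP9 (-0.53 ± 0.18), and UTP9 stood at 0.16 after the correction for GC content and length. The UTP23 call was not lost without any single library. The RRP5 call was lost without Xrn1-WT 30 min replicate 1 (0.68) or 3 (0.81) or either Xrn1-AID library (0.87 and 0.85), the BMS1 call without Xrn1-WT 30 min replicate 1 (0.67) or 3 (0.80) or Xrn1-AID replicate 2 (0.66), and the LCP5 call without Xrn1-AID replicate 2 (0.82). RRP7 was not called without Xrn1-AID 30 min replicate 1 (-0.33) or any 1 Xrn1-WT 30 min library (-0.57 to -0.66). UTP9 was not called without either Xrn1-AID library (-0.57 and -0.49) or without Xrn1-WT replicate 2 (-0.39) or 3 (-0.51).

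The difference between the arms' responses was tested directly. The change was less negative in Xrn1-AID for 37 of the 48 members at 10 min and for 40 at 30 min, the medians of the difference being 0.15 and 0.53 against 0.09 and -0.01 over all genes. The difference was negative for 11 and 8 members, and for 2617 and 3130 of all 6195 genes tested. No member passed at 10 min in edgeR's test, where 0.291% of all genes were called higher and 0.484% lower (10 members had an unadjusted p under 0.05, and 2, NOP1 and DBP8, passed in DESeq2's Wald test). At 30 min, 4 members passed, all with a smaller fall in Xrn1-AID, where 1% of all genes were called in that direction and 0.549% in the other. The changes in the 2 arms had a Spearman's rho of 0.82 at 30 min over the 48 members, a description of genes measured in the same libraries.

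**Figure D5:**
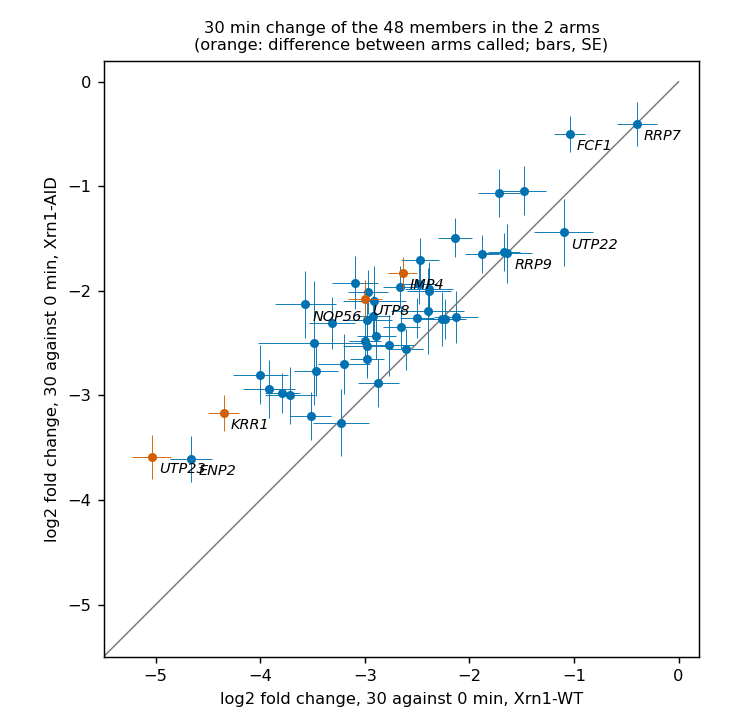
Log2 fold change at 30 against 0 min NaCl of the 48 members in Xrn1-WT (horizontal) and Xrn1-AID (vertical) with SE bars; the line marks equal changes. Of the 48 points, 40 lie above the line, and the 4 orange points (UTP8, IMP4, UTP23, KRR1) passed the test of the difference.

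UTP23 had the largest of the 4 differences, 1.46 ± 0.25 (adjusted p = 0.0150), between changes of -5.04 and -3.59 in Xrn1-WT and Xrn1-AID. KRR1 (YCL059C, chromosome III, 22429 to 23379) stood at 92.2, 130 and 121 CPM at 0 min, at 101, 97.6 and 99.1 at 10 min and at 13.2 and 12.3 at 30 min in Xrn1-AID, so that it was below Xrn1-WT in all 3 libraries before NaCl and above it in both at 30 min. Its difference was 1.19 ± 0.20 (adjusted p = 0.0150), and the difference of its changes from 10 to 30 min, 1.03 ± 0.20 (adjusted p = 0.0280), was the only one of the set to pass there, where 0.646% of all genes were called in that direction and 0.726% in the other. UTP8 (0.91 ± 0.22) and IMP4 (0.81 ± 0.19), the partner of IMP3 in the MPP10 complex, passed with an adjusted p of 0.0486 each. UTP8 stood at 85.2, 87.5 and 77.3 CPM at 0 min, at 65.1, 67.2 and 62.1 at 10 min and at 22.4 and 17 at 30 min in Xrn1-AID. In Xrn1-WT, IMP4 stood at 135, 125 and 155 CPM at 0 min and at 21.9, 23.5 and 21.2 at 30 min, against 91.7, 99.7 and 94.2 CPM and then 30.2 and 23.6 in Xrn1-AID. For both genes Xrn1-AID was lower in every library before NaCl, and at 30 min the arms overlapped for UTP8 and did not for IMP4. Both calls were lost without most single libraries, at 0.71 to 1.1 for UTP8 and 0.62 to 0.98 for IMP4. Xrn1-AID at 30 min rests on 2 libraries. Without Xrn1-AID 30 min replicate 1 no member passed, and UTP23 stood at 1.36 and KRR1 at 1.13. Without Xrn1-WT 30 min replicate 1, 1 member passed and UTP23 stood at 1.44, not called. Without Xrn1-WT 30 min replicate 2, 7 members passed, and 2 did without any 1 of Xrn1-AID 0 min replicates 1, 2 and 3, Xrn1-AID 30 min replicate 2, Xrn1-WT 0 min replicates 1 and 3 and Xrn1-WT 30 min replicate 3. The number was 0 with library size alone, 11 in DESeq2's Wald test and 14 after correction for GC content and length. Over all genes the calls went from 96 to 18 with library size alone and to 209 after that correction. The KRR1 difference from 10 to 30 min was lost without any 1 library of those times other than Xrn1-AID 10 min replicate 1 and Xrn1-WT 10 min replicate 3, with values of 0.92 to 1.08.

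The related assembly factors give the setting. Of 31 other factors of small subunit assembly, 29 were called lower at 30 min in Xrn1-WT, with a median of -2.69, and 29 in Xrn1-AID, with a median of -1.97. All 64 factors of large subunit assembly were called lower at 30 min in both arms, with medians of -3.29 and -2.49. The 4 core proteins of box H/ACA particles, which guide pseudouridylation, were called lower at 30 min in both arms as well, CBF5 by 3.25 ± 0.18 on the log2 scale in Xrn1-WT. Of all genes, 27.5% were called lower at 30 min in Xrn1-WT and 26.6% in Xrn1-AID, with a median of 0.01 in each arm. In the difference of the 30 min responses, 9 large subunit factors and 3 of the other small subunit factors were called higher and 0 lower. Their medians were 0.64 and 0.63, where 1% of all genes were called higher and 0.549% lower. CBF5 was called in that difference too (1.63 ± 0.25). PAC and RRPE were present together in 46.9% of the large subunit factors and in 19.4% of the other small subunit factors, beside 45.8% of the processome genes.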

How the data were processed

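The submitters' processing notes name sacCer3 as the build, with featureCounts 1.5.1, TopHat2 2.1.0 and DESeq2 1.22.2 among the tools. The deposited values are raw read counts per gene from single-end reads of 50 bases of a stranded mRNA kit, per the labels' protocols. The strand setting, annotation and handling of multiply aligned reads are not given in the sources used here. Counts were tested with edgeR 4.0.16 (R 4.3.3): filterByExpr, TMM, robust glmQLFit with 1 mean for each of the 6 groups, and Benjamini-Hochberg adjustment over 6195 genes within each of 12 contrasts. The SE is the size of the log2 fold change divided by the square root of F. CPM carry counting error only as far as depth sets it, and a count of 0 would have allowed 3 counts. The procedure was tested on simulated data.

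Gene positions, coding lengths and upstream sequences came from the RefSeq annotation of the sacCer3 sequence. No member overlaps another annotated gene; IMP3 and UTP11 share their upstream region with a divergent neighbour (MRPL6 and MTC2).

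Members and lists were chosen with earlier results of these data known. Values in every library are given for a panel of 17 members across the modules and, where they add to it, for members with the largest or smallest changes; further members shown in the same way (UTP9 and UTP6, and the motif examples) were picked after their values were seen. In comparisons of the arms, called members with the largest changes are named, up to 4 in each direction. The settings varied were the scaling (size factors of DESeq2, or library size by itself), the filter, the tool (DESeq2 1.42.0, Wald test), blocks by replicate number, a fit of the compared groups only, GC content and length corrected per library (splines with 5 degrees of freedom), leaving out each replicate and, chosen after seeing the data, omitting the 2 most deviating libraries.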

Additional observations from a re-analysis of the deposited data

Results flagged for a closer look

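For 4 members the 30 min response to NaCl differed between the arms by a test of the difference itself, in Xrn1-AID minus Xrn1-WT on the log2 scale: UTP23 by 1.46, KRR1 by 1.19, UTP8 by 0.91 and IMP4 by 0.81. KRR1 also differed in its change from 10 to 30 min, by 1.03. In each case the fall was smaller in Xrn1-AID. The number of members that passed at 30 min ranged from 0 to 7 when single libraries were left out. It also changed with the processing and with replicate blocks, as given below. UTP23 and KRR1 were among the most reduced members at 30 min in Xrn1-WT (-5.04 and -4.35). UTP8, IMP4 and KRR1 were also called lower in Xrn1-AID before NaCl (-0.86, -0.54 and -0.62), and the same 0 min libraries enter both values.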

How the results depend on the processing

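The counts of members called in the 6 NaCl comparisons, in both directions together, stayed within 1.5 times under all alternatives run; with library size alone, those called higher from 10 to 30 min in Xrn1-WT went from 1 to 6. The comparisons of the arms did not. With library size alone, 7, 6 and 1 members were called between the arms at 0, 10 and 30 min, and 0 and 0 in the differences of the 30 min responses and of the changes from 10 to 30 min. Over all genes, the calls between the arms also went from 2019, 1749 and 1393 to 1113, 1149 and 724. In the same 2 differences they went from 96 and 85 to 18 and 59. The Wald test of DESeq2 called 2, 11 and 10 members in the differences at 10 min, at 30 min and from 10 to 30 min, and the correction for GC content and length called 1, 14 and 16. Over all genes that correction called 40, 209 and 405, against 48, 96 and 85 in the main fit. For the 30 min difference, no filter gave 2 and only the compared groups 1. Omitting the 2 deviating libraries gave 3 for the difference from 10 to 30 min, where the calls over all genes went from 85 to 193. The cause was not tested.

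Replicate numbers did not pair the libraries: same-numbered libraries all correlated above 0.1 in 2 of 15 pairs of groups by the numbers in the titles and 1 of 15 by those in the descriptions. With the replicate block of the titles, 7 members were called between the arms at 30 min, and 0 and 0 in the 30 min and 10 to 30 min differences. With that of the descriptions the differences gave 2 and 0.

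Leaving out single libraries gave 8 to 14, and 2 to 11, members between the arms at 10 and 30 min, and 0 to 1, 0 to 7 and 0 to 3 in the 3 differences. With library size alone, changes from 10 to 30 min turned for BUD21 (0.78), EMG1 (0.56) and UTP15 (0.32) in Xrn1-WT and for UTP15 (0.01) in Xrn1-AID, and the GC and length correction turned NOP1 between the arms at 0 min (-0.46) and UTP9 at 30 min (0.16).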
